A study of Homo sapiens with 6 samples.

Results

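The 10 genes described here are the classical inhibitors of cyclin-dependent kinases (CDKs) and the D-type cyclins. They were taken from the count table by exact symbol: the CIP/KIP inhibitors CDKN1A, CDKN1B and CDKN1C, the INK4 inhibitors CDKN2A, CDKN2B, CDKN2C and CDKN2D, and the cyclins CCND1, CCND2 and CCND3. All 10 of 10 were found among the 60624 genes of the table, and 7 passed the low-count filter that 16652 genes passed. The other 3, CDKN2A, CDKN2B and CCND2, had a count of 0 in all 6 libraries.

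The libraries came from A549, an established human lung cancer line. The RAVER1 knockout group held 3 polyA RNA libraries of A549 cells in which RAVER1, an RNA-binding protein that works with the splicing regulator PTBP1, had been deleted by CRISPR/Cas9. The parental group held 3 libraries of A549 cells labelled WT. The knockout titles share the name KO2 and do not say whether it is 1 clone, and a difference between clones cannot be told apart from an effect of the deletion. The labels name no drug or other treatment. A549 is known to lack the CDKN2A and CDKN2B locus on chromosome 9p21, in both groups.

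D-type cyclins bind CDK4 and CDK6 and start the phosphorylation of RB1, which otherwise holds E2F transcription factors inactive in G1. INK4 proteins bind CDK4 and CDK6 and keep the cyclin out. CIP/KIP proteins bind whole cyclin-CDK complexes, block CDK2 in particular, and also help to assemble cyclin D with CDK4. Lung cancers often lose INK4 function or gain cyclin D, and both lead to the same loss of RB1 control.

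Total counts ran from 29811747 to 39910127 per library. RAVER1 itself had 110, 112 and 79 counts in knockout libraries, against 2510, 1996 and 2285 in parental libraries, and was 3.94% of the parental level. Of 6 epithelial markers 5 were lower and 1 higher in the knockout, with summed levels of 6417 to 7096 CPM (counts relative to the TMM-scaled library size, in the usual unit) in knockout and 8480 to 9335 CPM in parental libraries. Of 6 alveolar markers 1 had enough counts to be tested, and their sum stayed between 0.75 and 0.88 CPM in knockout and 0.823 and 1.11 CPM in parental libraries, with SFTPA1 and SFTPA2 at 0. Of 8 fibroblast markers 4 were tested and all 4 were higher, with sums of 81.1 to 86.8 CPM in knockout and 56.5 to 61.2 CPM in parental libraries and DCN at 0. Leukocyte markers summed to 8.87 to 9.44 CPM in knockout and 9.35 to 10.9 CPM in parental libraries (CD3E at 0), and endothelial markers to at most 0.129 CPM in knockout and 0.0658 CPM in parental libraries (PECAM1 at 0). Whether the shift in marker levels has a part in the results below was not tested. Genes of chromosome 2 had a median log2 fold change of 0.42, and 0 of the 10 genes lie there.

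Loss of RAVER1 went with small changes of most members and larger falls of CDKN1C and CDKN2C. Of the 7 tested, 2 were higher (CDKN1A and CCND1) and 4 lower (CDKN1B, CDKN1C, CDKN2C and CCND3) in the knockout at an edgeR adjusted p under 0.05. That is 85.7% of the 7, beside 41.4% of all genes tested, of which 21.3% were higher and 20.1% lower. For 6 of the 7 the libraries of the groups did not overlap in CPM, beside 50.2% of all genes tested. The median log2 fold change was -0.18 over the 7 and 0.0019 over all genes tested. For 4 of the 6 changed members the change was smaller than 0.25 on the log2 scale. A change of the size seen for CCND1 was exceeded by 43.5% of all genes tested.

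**Figure D1:**
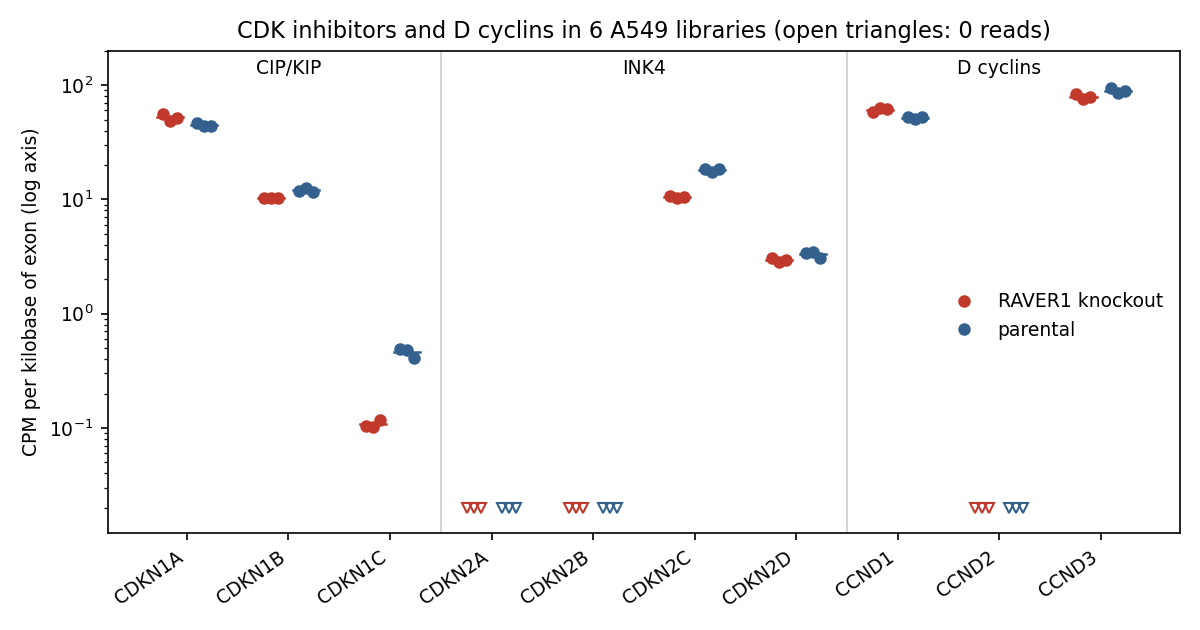
Level of each gene in every library, as CPM per kilobase of exon on a log axis, with knockout libraries (red) left of parental libraries (blue) and a bar at the mean of 3; open triangles mark a count of 0. CCND3, CCND1 and CDKN1A stand highest, CDKN1C lowest of those with reads, and CDKN2A, CDKN2B and CCND2 had none.

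Divided by exon length, so that genes can be compared, CCND3 had the highest level in both groups, with 79.2 ± 4.21 CPM per kilobase in knockout and 89.3 ± 4.40 in parental cells (SD, n = 3 each). CCND1 followed with 60.9 ± 2.49 CPM per kilobase in knockout and 51.9 ± 1.57 in parental cells. CDKN1A was next with 52.2 ± 3.56 CPM per kilobase in knockout and 44.6 ± 1.78 in parental cells. These 3 genes did not overlap with each other within either group.

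CDKN2C and CDKN1B came next, with the mean of CDKN2C above that of CDKN1B in both groups. CDKN2C had 10.5 ± 0.235 CPM per kilobase in knockout and 18.1 ± 0.592 in parental cells. CDKN1B had 10.3 ± 0.0269 CPM per kilobase in knockout and 12.1 ± 0.518 in parental cells. Their values overlapped in the knockout libraries and were apart in the parental ones. CDKN2D stood at 2.94 ± 0.144 CPM per kilobase in knockout and 3.33 ± 0.228 in parental cells, and CDKN1C at 0.108 ± 0.00828 in knockout and 0.461 ± 0.0449 in parental cells.

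Among the D cyclins, CCND1 rose and CCND3 fell, both by little. CCND1 (chromosome 11, 69641087 to 69654474, plus strand, GRCh38 with GENCODE 29, as all positions here), the cyclin most often amplified in carcinomas, had 277, 299.9 and 293 CPM in knockout libraries 1, 2 and 3, against 249, 239 and 253 CPM in parental libraries 1, 2 and 3. Every knockout library was above every parental one. The log2 fold change was 0.23 (SE 0.043, 95% interval 0.14 to 0.32), with an edgeR adjusted p of 0.000227. Of its exon bases in GENCODE 29, 10.3% are shared with LTO1 on the opposite strand, which stood at 25.2 CPM in knockout and 19.5 CPM in parental libraries and rose by 0.37 (SE 0.064, edgeR adjusted p 0.000134). The strand setting of the counting is not given in the sources used here, so these reads may not have been separable.

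CCND3 (chromosome 6, 41934933 to 42050357, minus strand), the D cyclin best known from lymphoid cells, had 482, 434 and 452 CPM in knockout libraries, against 542, 492 and 509 CPM in parental libraries. The highest knockout library lay below the lowest parental one. Its log2 fold change was -0.17 (SE 0.047, 95% interval -0.27 to -0.076), with an edgeR adjusted p of 0.00559. The pseudogene CCND3P1 had 1 count in each knockout library and 0 in the parental ones.

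CCND2 (chromosome 12, 4273772 to 4305350, plus strand), a D cyclin known from ovary and lymphoid cells, had 0 counts in every library. A count of 0 allows a level of up to 0.0754 to 0.0966 CPM in the knockout libraries and up to 0.0875 to 0.0987 CPM in the parental ones (3 counts of each library, counting error only). Its antisense transcript CCND2-AS1 was also at 0. The 10 tested genes nearest to CCND2, with 5 on each side, lay within 1483 kb. Of these, 2 were higher and 2 lower, with a median log2 fold change of -0.043. This share is near the 41.4% of all genes tested.

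The summed level of the D cyclins was 140.1 ± 1.75 CPM per kilobase in knockout and 141 ± 5.47 in parental cells (SD, n = 3 each). The sums overlapped between the groups, while the make-up of the sum did not. CCND1 made up 41.0%, 45.5% and 44.0% of it in knockout libraries, against 35.8%, 37.0% and 37.5% in parental libraries, and CCND3 made up the rest. The difference was 6.75 percentage points (43.5 ± 2.30% in knockout, 36.8 ± 0.907% in parental, SD, n = 3 each). A 2-sided exact permutation test gave p = 0.10, the smallest that 3 libraries against 3 can give, and p = 0.10 after Benjamini-Hochberg adjustment over the 4 shares tested.

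**Figure D2:**
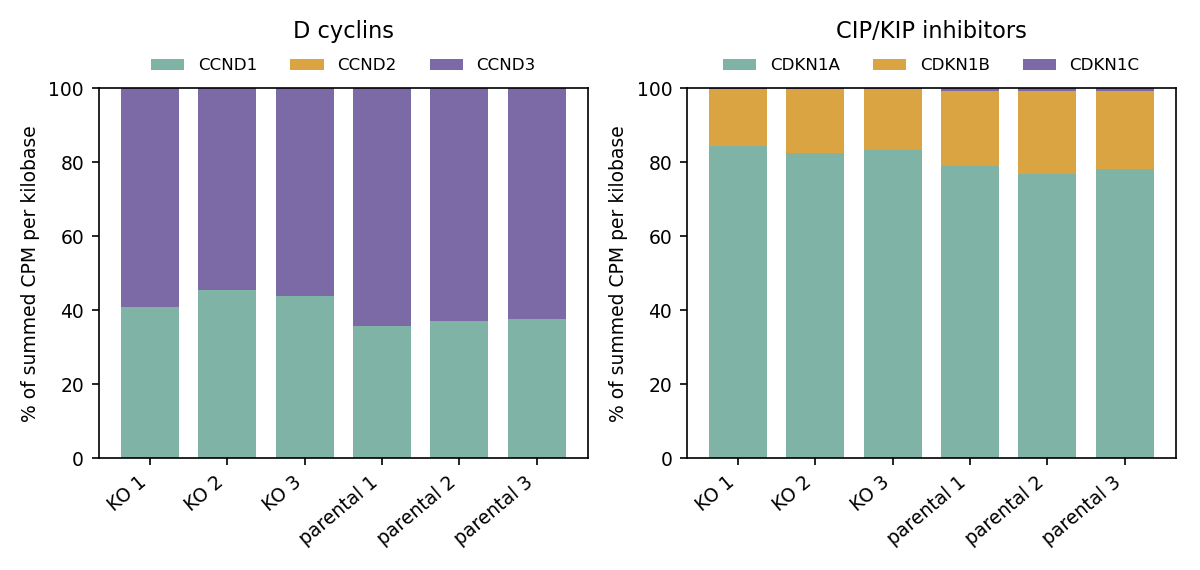
Stacked share of each gene in the summed CPM per kilobase of the D cyclins (left) and of the CIP/KIP inhibitors (right), as a percent, in 3 knockout and 3 parental libraries. CCND1 takes 41.0% to 45.5% in knockout and 35.8% to 37.5% in parental libraries, CCND2 takes 0%, and CDKN1A takes 82.4% to 84.4% in knockout and 76.8% to 79.1% in parental libraries.

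Among the CIP/KIP inhibitors, CDKN1A rose and the other 2 fell. CDKN1A (chromosome 6, 36676460 to 36687339, plus strand) encodes p21, the inhibitor best known for its induction after DNA damage. It had 168, 147 and 154.5 CPM in knockout libraries, against 139.9, 130.3 and 131 CPM in parental libraries. The lowest knockout library was above the highest parental one. The log2 fold change was 0.23 (SE 0.051, 95% interval 0.12 to 0.33), with an edgeR adjusted p of 0.00133.

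CDKN1B (chromosome 12, 12715058 to 12722371, plus strand) encodes p27, which binds cyclin E with CDK2 and is removed mostly by protein breakdown as cells enter S phase. It had 26.4, 26.5 and 26.4 CPM in knockout libraries, against 30.4, 32.5 and 30.03 CPM in parental libraries. The groups did not overlap. The SD was 0.0691 CPM in knockout and 1.33 CPM in parental libraries, and a difference in spread between the groups was not tested. CDKN1B changed by -0.23 on the log2 scale (SE 0.058, 95% interval -0.35 to -0.10), with an edgeR adjusted p of 0.0043.

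CDKN1C (chromosome 11, 2883213 to 2885773, minus strand) encodes p57 and is imprinted, with expression from the maternal copy in most tissues. It had raw counts of 10, 10 and 9 in knockout libraries, against 42, 36 and 33 in parental libraries. This corresponds to 0.267 ± 0.0205 CPM in knockout and 1.14 ± 0.111 CPM in parental cells (SD, n = 3 each), the lowest level among the members with reads. The log2 fold change was -2.09 (SE 0.27, 95% interval -2.65 to -1.53), with an edgeR adjusted p of 3.67e-06, or 23.4% of the parental level. It was the only member that changed at least 2-fold, and 1.82% of all genes tested had a larger change. The 2 tested genes nearest to CDKN1C in profile were VAV3 and ADORA1, at Euclidean distances of 0.184 and 0.196. Distances were taken on log2 CPM over the 6 libraries, after the parental mean was subtracted. They pick genes of like fold change (-1.97 for VAV3, -2.01 for ADORA1), and shared variation within the groups was not tested. VAV3 had 5.16 CPM in knockout and 20.1 CPM in parental cells, and ADORA1 0.45 CPM in knockout and 1.80 CPM in parental cells.

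Within the CIP/KIP sum, CDKN1A took 83.3 ± 0.968% in knockout and 78.1 ± 1.17% in parental cells, a difference of 5.26 points. CDKN1B took 16.5 ± 0.96% in knockout and 21.1 ± 1.16% in parental cells, and CDKN1C took 0.172 ± 0.0159% in knockout and 0.805 ± 0.062% in parental cells (SD, n = 3 each). For each of these 3 shares the groups did not overlap, and the 2-sided exact permutation test gave p = 0.10, the smallest possible, and 0.10 after adjustment. Per length, CDKN1A exceeded CDKN1B 5.06 ± 0.358 times in knockout and 3.70 ± 0.256 times in parental cells. The CIP/KIP sum was 62.7 ± 3.54 CPM per kilobase in knockout and 57.2 ± 1.65 in parental cells.

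**Figure D3:**
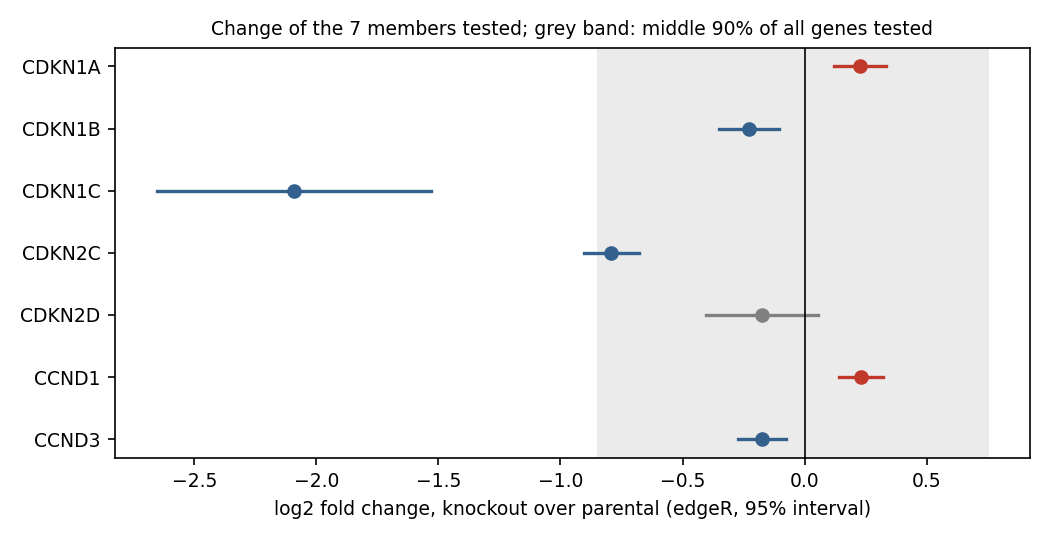
Log2 fold change of the 7 tested members, knockout over parental, with 95% intervals from edgeR; red is higher, blue lower and grey not past the threshold, and the band spans the middle 90% of all genes tested (-0.84 to 0.75). The whole interval of CDKN1C lies outside the band, the interval of CDKN2C crosses its edge, and the other 5 lie inside.

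Among the INK4 inhibitors, CDKN2C fell and CDKN2D did not pass the threshold. CDKN2C (chromosome 1, 50960745 to 50974633, plus strand) encodes p18. It had 32.4, 31.0 and 31.4 CPM in knockout libraries, against 56.0, 52.7 and 55.5 CPM in parental libraries. The highest knockout library lay well below the lowest parental one. The log2 fold change was -0.79 (SE 0.054, 95% interval -0.91 to -0.68), with an edgeR adjusted p of 7.58e-10, so that CDKN2C stood at 57.7% of the parental level. Of all genes tested, 10.1% had a larger change. Of the 10 tested genes nearest to it, 1 was higher and 3 lower, with a median of -0.024. This share is near the 41.4% of all genes tested.

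CDKN2D (chromosome 19, 10566462 to 10569059, minus strand) encodes p19, the INK4 protein that peaks in S phase. It had 4.66, 4.22 and 4.41 CPM in knockout libraries, against 5.13, 5.27 and 4.62 CPM in parental libraries. The highest knockout library exceeded the lowest parental one. The log2 fold change was -0.18 (SE 0.11, edgeR adjusted p 0.217), and its 95% interval of -0.41 to 0.054 includes no change. CDKN2D lies 233 kb from RAVER1 on the same chromosome arm. Of the 8 tested genes wholly between them, 4 were higher and 0 lower in edgeR, with a median of 0.16. Over all genes tested, 21.3% were higher and 20.1% lower.

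With CDKN2A and CDKN2B at 0, CDKN2C and CDKN2D made up the whole INK4 sum, which was 13.4 ± 0.378 CPM per kilobase in knockout and 21.5 ± 0.502 in parental cells (SD, n = 3 each). CDKN2C held 78.1 ± 0.46% of it in knockout and 84.5 ± 1.21% in parental cells. The 3 knockout sums, 13.1 to 13.8, lay below the 3 parental ones, 20.96 to 21.96 CPM per kilobase.

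CDKN2A (chromosome 9, 21967753 to 21995301, minus strand) encodes p16 and, from another first exon, the ARF protein. CDKN2B (22002903 to 22009363, minus strand) encodes p15, an INK4 protein known to be induced by TGFB. Each had raw counts of 0, 0 and 0 in knockout libraries and 0, 0 and 0 in parental libraries. Counts of 0 allow the same levels as for CCND2 above. No fold change can be given for either gene.

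The reads around these 2 genes show where transcripts were found, and not where the deletion ends. After MTAP, the neighbour on the side of the chromosome end, 9 rows of the table follow up to CDKN2B. Of these, 8 had 0 counts in all 6 libraries. Rows with few or no reads were common in the wider region: of the 98 rows from MLLT3 to IFT74, 17 had a count in every library. MTAP, which salvages adenine and is often lost together with CDKN2A, had 0, 4 and 3 counts in knockout libraries, against 2, 4 and 3 in parental libraries. The exception among the 9 was CDKN2B-AS1, a long noncoding RNA that starts near CDKN2A and runs past CDKN2B on the opposite strand. It had 126, 134 and 93 counts in knockout libraries, against 86, 91 and 93 in parental libraries. Gene counts do not show which of its exons the reads came from. Its log2 fold change was 0.21 (SE 0.13), not past the threshold (edgeR adjusted p 0.227).

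**Figure D4:**
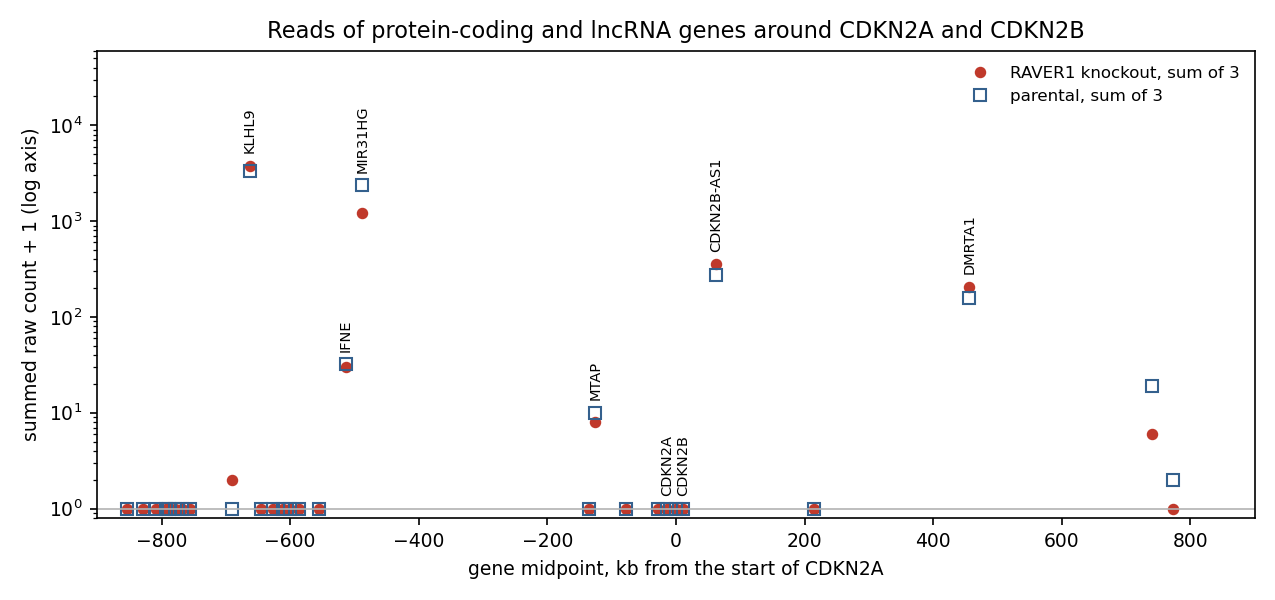
Raw counts summed over 3 libraries of each group, plus 1, on a log axis, for protein-coding and long noncoding genes by distance of their midpoint from the start of CDKN2A, in kilobases. MTAP has under 10 counts in each group, CDKN2A and CDKN2B have 0, and KLHL9, MIR31HG, CDKN2B-AS1 and DMRTA1 have over 100 in each group.

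Farther out, reads returned on both sides. On the MTAP side, IFNE had 12, 9 and 8 counts in knockout libraries, against 9, 8 and 14 in parental libraries, and the noncoding MIR31HG fell to 10.9 CPM in knockout, against 24.3 CPM in parental cells (log2 fold change -1.15, SE 0.075, edgeR adjusted p 4.67e-10). KLHL9 (34.5 CPM in knockout, 34.1 in parental) and FOCAD (77.0 CPM in knockout, 79.6 in parental) did not pass the threshold, HACD4 rose by 0.91 and MLLT3 fell by 0.78 on the log2 scale. On the CDKN2B side, DMRTA1 (1.85 CPM in knockout, 1.61 in parental), CAAP1 (25.0 in knockout, 26.6 in parental), PLAA (43.1 in knockout, 39.7 in parental; past it at 0.16 without knockout library 1 and at 0.12 with the replicate block) and IFT74 (13.4 in both) did not pass it, and TUSC1 rose by 0.74. LINC01239 had 4, 0 and 1 counts in knockout libraries, against 5, 8 and 5 in parental libraries, and ELAVL2 at most 3 counts in any library. IFNB1, IFNA1, CDKN2A-DT and IZUMO3 were at 0 throughout.

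CDKN1C lies in the imprinted cluster of 11p15. Of the 10 tested genes nearest to it 3 were higher and 2 lower, a share near the 41.4% of all genes tested, with a median log2 fold change of 0.055. IGF2, a growth factor gene expressed from the paternal copy, had 10, 6 and 9 counts in knockout libraries, against 44, 37 and 42 in parental libraries (log2 fold change -2.45, SE 0.28, edgeR adjusted p 9.19e-07). H19, a noncoding RNA expressed from the maternal copy, had 124, 64 and 63 counts in knockout libraries, against 23, 18 and 22 in parental libraries (1.81, SE 0.26, edgeR adjusted p 1.56e-05). KCNQ1OT1, the noncoding RNA whose paternal expression silences CDKN1C on that copy, had 44, 37 and 44 counts in knockout libraries, against 20, 25 and 21 in parental libraries. Its log2 fold change was 0.75 (SE 0.24, edgeR adjusted p 0.0178), a call that did not hold in DESeq2 (0.76) or when parental library 1 (0.65), parental library 3 (0.71) or knockout library 3 (0.60) was left out. The groups did not overlap for any of these 4 genes, and all 4 had few counts. IGF2 and KCNQ1OT1 overlap other annotated genes, so their reads may not be wholly their own. Gene counts do not show from which parental copy a read came.

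The other genes of this cluster did not move as one. SLC22A18, a transporter, fell to 10.4 CPM in knockout, against 14.6 CPM in parental cells (-0.49, SE 0.077), and its antisense gene SLC22A18AS to 4.52 CPM in knockout, against 7.14 CPM in parental cells (-0.65). TSSC4 rose by 0.31 and CD81 by 0.11, and the CD81 call was lost under 8 of the 14 alternatives, with values of 0.084 to 0.14 when single libraries were left out. PHLDA2, an imprinted growth regulator, had 12.1 CPM in knockout and 12.2 CPM in parental cells and did not pass the threshold (edgeR adjusted p 0.922), nor did KCNQ1 (0.32 CPM in knockout, 0.526 in parental), NAP1L4 (76.8 in knockout, 73.9 in parental; past it at 0.22 without knockout library 1), CARS1 (40.8 in knockout, 37.3 in parental; past it at 0.14 with TMM from genes outside chromosome 2 and at 0.13 with the replicate block) or OSBPL5 (21.5 in knockout, 21.2 in parental). INS and TH were at 0, and ASCL2, TSPAN32 and TRPM5 had at most 6 counts in any library.

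The title of the study names miRNA activity, and several members are known targets of miRNAs. Mature miRNAs were not measured in these polyA libraries. To show where such contacts could lie, the longest annotated 3 prime UTR of each member was searched, on its transcript strand, for the 7 letters that pair with bases 2 to 8 (the seed) of 5 miRNAs (let-7a-5p, miR-16-5p, miR-17-5p, miR-34a-5p and miR-221-3p) chosen for their known links to cell-cycle genes. A match is a description of sequence and not a measured contact. Of the 10 members, 7 held at least 1 match, and CDKN2A, CDKN2C and CDKN2D held none for these 5. The 3 miRNAs whose matches in the D cyclins and CIP/KIP inhibitors are described next are printed here from RefSeq (GRCh38.p14), 5′ to 3′, with the seed in capitals. No 2 of them share a seed.
hsa-miR-16-5p: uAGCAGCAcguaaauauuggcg
hsa-miR-17-5p: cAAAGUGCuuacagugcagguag
hsa-miR-221-3p: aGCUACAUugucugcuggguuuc

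All 3 D cyclins held 1 match to the miR-16 seed (TGCTGCT), and they are shown because CCND1 rose, CCND3 fell and CCND2 had no reads. The match occurs in 37.4%, 50.9% and 17.8% of 3 prime UTRs within 20% of the length of those of CCND1, CCND2 and CCND3, in that order. The windows of 29 bases below come from GENCODE 29 transcripts (GRCh38), 5′ to 3′ on the transcript, with the match in capitals and its position on the genome.
CCND1, chr11:69653315-69653321, plus strand: ttcacattgttTGCTGCTattggaggatc
CCND2, chr12:4301773-4301779, plus strand: ttcacagagtgTGCTGCTattttataaac
CCND3, chr6:41935320-41935326, minus strand: attgacagcttTGCTGCTgaaggctcatt

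Among the CIP/KIP inhibitors, CDKN1A, which rose, held 2 matches to the miR-17 seed (GCACTTT), 1 to miR-16 and none to miR-221. At least 1 miR-17 match occurs in 21.2% of 3 prime UTRs of like length. CDKN1B and CDKN1C, which fell, held 2 and 1 matches to the miR-221 seed (ATGTAGC), and none to miR-17 or miR-16. At least 1 miR-221 match occurs in 6.29% and 3.0% of 3 prime UTRs of like length, in that order. Outside this family, CCND1 and CCND2 held 1 match each to miR-17, and CDKN2B and CCND2 1 each to miR-221. The remaining matches were 1 to let-7a in CDKN1A and 1 each to miR-34a in CDKN1B and CDKN1C, and no D cyclin held either. CDKN2C, which also fell, held no match to any of the 5 miRNAs. The miRNAs were chosen for known links to such genes, so the shares above are no test of enrichment. Whether a miRNA has a part in any change was not tested. The windows of the miR-17 matches in CDKN1A and the miR-221 matches in CDKN1B and CDKN1C are printed in the same form.
CDKN1A, first match, chr6:36686268-36686274, plus strand: gtaaacagatgGCACTTTgaaggggcctc
CDKN1A, second match, chr6:36686948-36686954, plus strand: cccagttcattGCACTTTgattagcagcg
CDKN1B, first match, chr12:12721228-12721234, plus strand: aaaagcgttggATGTAGCattatgcaatt
CDKN1B, second match, chr12:12721301-12721307, plus strand: ttttaccttttATGTAGCacataaacttt
CDKN1C, chr11:2883829-2883835, minus strand: tgggaccgttcATGTAGCagcaaccggcg

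The kinases that D cyclins activate did not pass the threshold. CDK4 had 310.5 CPM in knockout and 298 CPM in parental cells (log2 fold change 0.057, 95% interval -0.046 to 0.16), and CDK6 had 77.9 CPM in knockout and 76.2 CPM in parental cells (0.032, 95% interval -0.11 to 0.18). RB1 had 45.6 CPM in knockout and 47.5 CPM in parental cells (-0.059, SE 0.064, edgeR adjusted p 0.501). Of the 15 genes of the CDK4, CDK6, RB and E2F list, 2 were higher and 3 lower, with a median log2 fold change of 0.032. Their share was 33.3%, beside 41.4% of all genes tested. The repressive E2F6, on the shifted chromosome 2, rose by 0.49 and the E2F partner TFDP2 by 0.23. The pocket protein RBL2 fell by 0.22, E2F2 by 0.24 and, named after its value was seen, TFDP1 by 0.14, a call lost without parental library 1 (-0.11). E2F1 stood at 74.4 CPM in knockout and 68.8 CPM in parental cells (edgeR adjusted p 0.0777), and passed without knockout library 2 (0.15), with TMM from genes outside chromosome 2 (0.13) and with the replicate block (0.11).

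**Figure D5:**
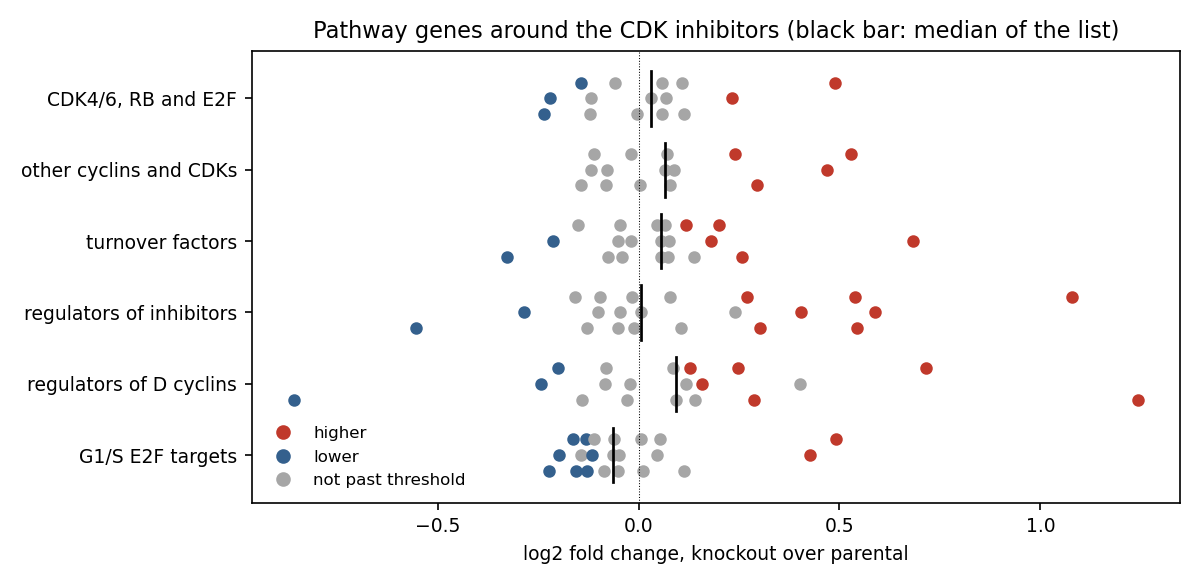
Log2 fold change, knockout over parental, of each tested gene in 6 lists around the CDK inhibitors, with red for higher, blue for lower and grey for genes not past the threshold, and a black bar at the median of the list. The medians lie between -0.064 and 0.094, and single genes such as ID1, FOSL1 and NOTCH1 stand apart.

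Of 15 tested cyclins, CDKs and their direct regulators outside the D group, 4 were higher and 0 lower in edgeR (median 0.066). That is 26.7%, beside 41.4% of all genes tested. At an unadjusted p under 0.05 CCNE1 was also lower and CCNB1, named after its value was seen, also higher (0.088, edgeR adjusted p 0.0929). In limma-voom CCNE1 was lower after adjustment, while DESeq2 also put 0 lower. CDK1, the mitotic kinase, rose to 124 CPM in knockout, against 86.1 CPM in parental cells (0.53, SE 0.054, edgeR adjusted p 1.87e-07). CCNH, part of the kinase that activates CDKs, rose by 0.47, the phosphatase CDC25B by 0.30 and the inhibitory kinase WEE1 by 0.24. CDK2, the main target of p21 and p27, had 75.1 CPM in knockout and 79.3 CPM in parental cells (-0.077, edgeR adjusted p 0.195). CCNE1 had 29.8 CPM in knockout and 32.9 CPM in parental cells (-0.14, edgeR adjusted p 0.0505), and CCNA2 had 96.1 CPM in knockout and 95.9 CPM in parental cells. CCNE1 passed the threshold under 6 alternatives: without knockout library 1 (-0.17), with RLE (-0.15) or upper-quartile scaling (-0.18), with the filter of 1 CPM (-0.14), with the replicate block (-0.14) and in limma-voom (-0.14).

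Of 20 tested factors that mark inhibitors and D cyclins for breakdown, 5 were higher and 2 lower (median 0.056). The share of these 20 that were higher or lower was below the 41.4% of all genes tested. CUL4B, a scaffold of the ligase that degrades p21, rose to 101.6 CPM in knockout, against 63.3 CPM in parental cells (0.68, SE 0.057, edgeR adjusted p 1.38e-08), and its substrate receptor DTL fell by 0.21. UBAC1, a partner of a ligase for p27, rose by 0.26 and FBXW8, reported to act on cyclin D1, fell by 0.33. The other 3 that were higher, CDC20 (0.20), DDB1 (0.18) and CKS2 (0.12), were picked with their values known. The CKS2 call was lost without parental library 2 (0.11) or 3 (0.097) and without knockout library 2 (0.097) or 3 (0.13), and with upper-quartile scaling (0.084) or no low-count filter (0.12). SKP2, the receptor that brings p27 to its ligase, had 26.9 CPM in knockout and 28.3 CPM in parental cells (-0.077, edgeR adjusted p 0.397).

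Of 21 known transcriptional regulators of the inhibitors, 7 were higher and 2 lower, or 42.9%, beside 41.4% of all genes tested (median 0.0056). ID1, an antagonist of factors that activate CDKN1A and CDKN2A, rose to 102 CPM in knockout, against 48.4 CPM in parental cells (1.08, SE 0.046, edgeR adjusted p 7.64e-13). MYC, which represses CDKN1A and CDKN2B, rose to 189.6 CPM in knockout, against 126 CPM in parental cells (0.59). SMAD3, an effector of TGFB, rose by 0.54 and ETS2 by 0.54. FOXO4 (-0.55) and the repressor EZH2 (-0.29), the 2 that fell, were picked with their values known.

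Of 19 tested regulators of the D cyclins, 6 were higher and 3 lower, or 47.4%, beside 41.4% of all genes tested (median 0.094). FOSL1, an AP-1 subunit, rose to 62.4 CPM in knockout, against 26.4 CPM in parental cells (1.24, SE 0.082, edgeR adjusted p 4.99e-10). JUNB, another AP-1 subunit, rose by 0.72 and CTNNB1, the beta-catenin gene, by 0.29. NOTCH1 fell to 66.1 CPM in knockout, against 119.7 CPM in parental cells (-0.86). JUND (-0.24) and JUN (-0.20), picked with their values known, fell too. The libraries of the groups overlapped for JUN, whose call was lost without parental library 1 (-0.19) or 3 (-0.15) and without knockout library 1 (-0.16) or 3 (-0.20).

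Of 21 E2F targets and related genes of the G1 to S transition, 2 were higher and 7 lower (median -0.064). Their share was 42.9%, beside 41.4% of all genes tested. Both that rose, RRM2 (0.49) and MCM6 (0.43), lie on chromosome 2. MCM7, a subunit of the replicative helicase, fell to 542.5 CPM in knockout, against 634 CPM in parental cells (-0.22, SE 0.040, edgeR adjusted p 0.000179). MKI67, the proliferation marker, fell to 526 CPM in knockout, against 604 CPM in parental cells (-0.20, SE 0.043, edgeR adjusted p 0.000928).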

How the data were processed

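PolyA RNA of A549 cells was sequenced after stranded Illumina library preparation, per the labels' protocols. The authors used cutadapt 2.8, HISAT2 2.1.0, SAMtools 1.10 and featureCounts 2.0.0 with hg38, as the submitters' processing notes list. Raw counts and a length in bases were deposited for each gene. For the annotation release, strand setting and multi-mapping reads, settings were not given in the sources used here. All 37 mitochondrial rows were at 0.

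The fit used edgeR 4.0.16 under R 4.3.3 (filterByExpr, TMM, quasi-likelihood F-test, knockout over parental, no covariate), with Benjamini-Hochberg adjustment over 16652 genes and a threshold of 0.05. The edgeR step was tested on simulated data. SEs were derived from fold change and F. CPM used TMM-scaled library sizes, and levels per length used the deposited gene length. Shares were tested with exact permutation tests in scipy 1.17.1. Positions and 3 prime UTRs came from GENCODE 29, joined by Ensembl identifier. Libraries of 1 group differed by more than sampling noise in every pair (chi-square per degree of freedom 2.42 to 8.86, genes of 20 or more counts). P-values measure the spread between libraries, called biological replicates in the design.

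Members and gene lists were chosen with earlier results of these data known. Named genes were all members, up to 4 genes with the smallest adjusted p among the called genes of each pathway list, 11 fixed cell-cycle genes (1 is not reported here), neighbours at 9p21 and 11p15 with enough counts to be tested (at 9p21, with any count), and the 2 nearest profiles of members changed at least 2-fold. The miRNA search and the windows of 10 neighbouring genes were added after values were seen. Alternatives were other scalings and filters, TMM from genes outside chromosome 2, leaving out each library, a replicate block, DESeq2 1.42.0, limma-voom 3.58.1 and other gene lengths.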

Additional observations from a re-analysis of the deposited data

How the results depend on the processing

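The 7 tested members kept their direction and their side of the threshold under all 14 alternatives: RLE or upper-quartile scaling, TMM from genes outside chromosome 2, no filter or 1 CPM in 3 libraries, the replicate block, each of 6 libraries left out, DESeq2 and limma-voom. CDKN1C ranged from -2.18 to -2.04, CDKN2C from -0.83 to -0.78, CDKN1B from -0.26 to -0.19, CCND3 from -0.21 to -0.13, CDKN2D from -0.24 to -0.14, CCND1 from 0.20 to 0.27 and CDKN1A from 0.17 to 0.27 on the log2 scale. The highest adjusted p of a called member was 0.0407, for CCND3 without knockout replicate 2. The difference in the CCND1 share was 5.08 points with the longest transcript as length and 6.45 points with no length correction. Of all genes, 3543 were higher and 3343 lower. Upper-quartile scaling gave 3098 higher and 3872 lower, and TMM from genes outside chromosome 2 gave 3813 and 3107.

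With the replicate number as a block, 4275 genes were higher and 4071 lower, and the calls of all 7 members held. Deviations of same-numbered libraries correlated at 0.129, 0.0293 and 0.0142. Knockout libraries 1 and 2 correlated best with their own number, and knockout library 3 with parental library 2 (0.0667). The SE of CDKN1A was 0.028 with the block and 0.051 without it. Whether the numbers pair the libraries cannot be told from these values.

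Among other cyclins and CDKs, limma-voom put 1 gene lower, CCNE1. Values of genes not past the threshold that changed sign were CDK6 at -0.0012 and KLHL9 at -0.015 with upper-quartile scaling, OSBPL5 at -0.013 with the same scaling, CCNA2 at -0.00098 with RLE scaling, -0.030 with upper-quartile scaling and -0.00069 in DESeq2, and IFT74 at 0.012 and PHLDA2 at 0.0046 with TMM from genes outside chromosome 2. With 1 library left out, values ran from -0.023 to 0.13 for CDK6, -0.12 to 0.0044 for RB1, -0.056 to 0.059 for CCNA2, -0.031 to 0.085 for KLHL9, -0.081 to 0.087 for IFT74, -0.090 to 0.043 for PHLDA2, -0.17 to 0.22 for NAP1L4 and -0.040 to 0.059 for OSBPL5. Other genes not past the threshold kept their sign but moved by over 1.5 times: CDK4 (0.0049 to 0.096), SKP2 (-0.12 to -0.0017), CDKN2B-AS1 (0.14 to 0.26), DMRTA1 (0.083 to 0.33), FOCAD (-0.074 to -0.028) and CAAP1 (-0.12 to -0.047). The causes were not tested. CDKN1C rests on 29 knockout and 111 parental counts.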
